A study of Rattus norvegicus with 11 samples.

Results

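The autophagy core genes described here are 8 genes measured in rat hippocampus by 11 probe sets, the groups of probes that an array reads as 1 signal. The genes were chosen by name: of 10 named genes, 8 have a probe set that the platform annotation gives to them alone, out of 10412 genes with such a probe set on the array. The 8 are Becn1, Atg7, Atg5, Atg12, Map1lc3a, Gabarap, Gabarapl1 and Sqstm1. All probe sets of Map1lc3b and Gabarapl2 carry several gene symbols, so no value is given for these 2 genes. The set was put together with the differences between the diets on these arrays known, so those differences count as values it was selected on. They are given here as a description, and an adjusted p only places a probe set within the fit over all probe sets.

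The study compared total RNA of hippocampus from rats on a control diet, 6 arrays, with that from rats on a ketogenic diet, 5 arrays. A ketogenic diet is rich in fat and poor in carbohydrate, and the labels describe it as a diet that prevents seizures. The labels give no strain, age, sex or length of feeding, and they do not say that each array came from a separate rat, so a p-value here reflects how much these arrays vary, which may be technical. Signals are probe set intensities, given here as log2 values after quantile normalization between arrays, and a difference is always ketogenic minus control diet.

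In macroautophagy a cell encloses part of its cytoplasm in a membrane that closes into an autophagosome and fuses with a lysosome. Beclin 1, the product of Becn1, is a subunit of the lipid kinase complex that marks the site where the membrane forms. ATG7 then activates 2 kinds of small ubiquitin-like protein: ATG12, which is joined to ATG5, and the LC3 and GABARAP proteins, which are joined to a lipid of the growing membrane. The ATG12-ATG5 conjugate helps to place the LC3 and GABARAP proteins there, and p62, the product of Sqstm1, binds them and ubiquitin-tagged cargo. Neurons depend on this pathway to clear proteins and organelles, and fasting is a classic inducer of it in several tissues. Much of its control acts on proteins, so a transcript level is no measure of the rate of autophagy.

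The arrays differed in ways other than these genes. Control probe sets at the 3 prime and 5 prime ends of a transcript track RNA integrity, a larger log2 ratio going with more degraded RNA. Ketogenic arrays exceeded control arrays in this ratio by 0.20 for Gapdh and by 0.19 for actin (exact permutation test, two-sided, adjusted p = 0.00649 for each over 3 measures). The mean log2 level of the bacterial spike-in probe sets was higher by 0.30 (exact permutation test, adjusted p = 0.00649). Ketogenic replicate 3, whose label ends in a suffix that no other array carries, had a score of -2.82 on the first principal component, where controls scored -17.3 to -10.6 and ketogenic replicates 1, 2, 4 and 5 scored 18.7 to 25.8. Genes listed as markers of hippocampal and cortical excitatory neurons were present, with Slc17a7, Nrgn, Neurod2, Prox1, Wfs1 and Snap25 all tested and 0 of the 6 called by limma (0 at an unadjusted p under 0.05). All 4 red blood cell markers were called lower, with a summed signal of 1167 to 1622 in controls and 295 to 385 on the ketogenic diet. Of choroid plexus markers 3 of 6 were called lower, with summed signals of 752 to 2468 and 578 to 964. The counts called lower were 2 of 6 for astrocytes, 1 of 5 for oligodendrocytes and 2 of 5 for microglia. They were 1 of 5 for meninges, 1 of 4 for vessels and 1 of 3 for cerebellum. Of inhibitory neuron markers 0 of 5 were called by limma (1 at an unadjusted p under 0.05, Pvalb, which was higher by 0.49). Over all 8397 tested genes 8.03% were called lower and 8.85% higher. In bulk tissue fewer cells of a type and less RNA per cell cannot be told apart, and the part of these measures in the results was not tested beyond the fits given beside each result.

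Of the 11 probe sets, 10 were bright enough to be tested, at least 1 for each of the 8 genes. A probe set is called where its adjusted p is under 0.05 in limma, fitted over all 11899 tested probe sets with Benjamini-Hochberg adjustment. Among the 10 tested probe sets 2 were called, Becn1 lower and Atg12 higher, beside 16.5% of all tested probe sets, with 8.62% called higher and 7.86% called lower. The values as deposited gave the same 2 calls, but over all probe sets the share of calls that were higher was 38.3% there, against 52.3% after quantile normalization. The 10 differences had a median of 0.035, 6 positive and 4 negative, against a median of -0.0041 over all tested probe sets. Their median absolute size was 0.12, against 0.17 over all. The groups did not overlap for the same 2 probe sets, beside 6.99% of all tested probe sets.

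**Figure D1:**
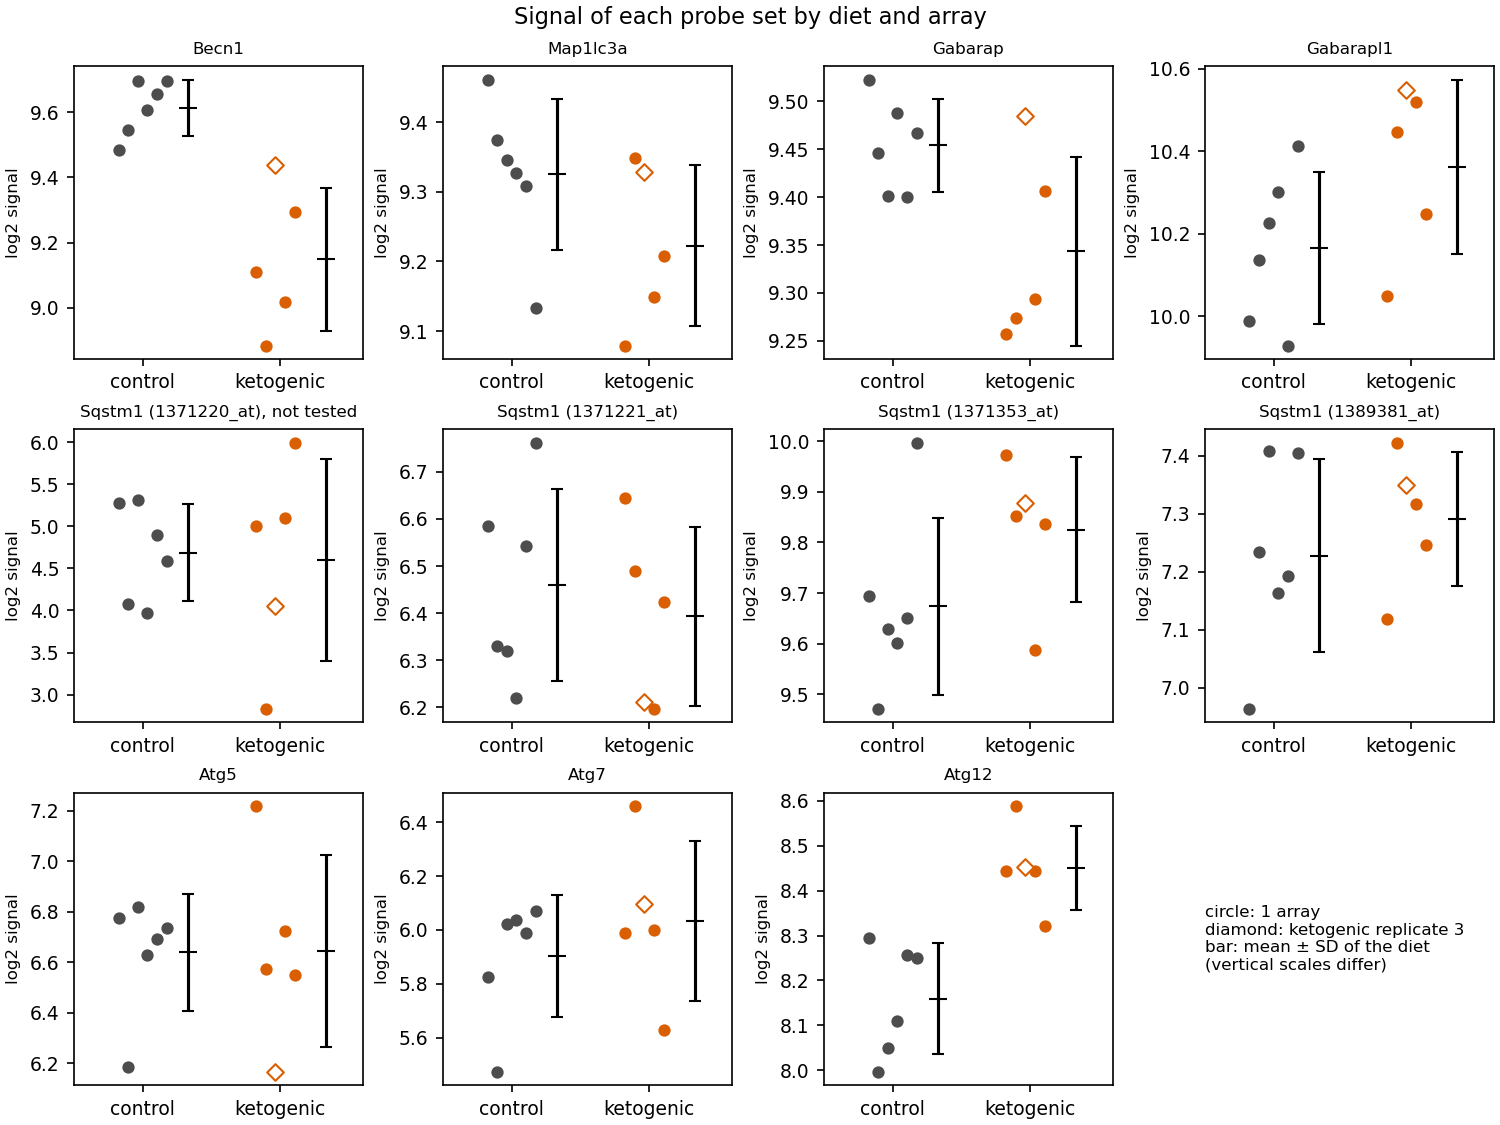
Log2 signal of each of the 11 probe sets on every array, control diet in grey and ketogenic diet in orange, with the mean and SD of each diet as a bar and ketogenic replicate 3 as an open diamond. For Becn1 all 5 ketogenic arrays lie below all 6 control arrays, for Atg12 all 5 lie above, and for the other 9 probe sets the diets overlap.

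Becn1, the beclin 1 subunit of the lipid kinase complex, was the member with the largest absolute difference after quantile normalization and without covariates. With each array centred on its 75th percentile instead, Atg12 and Gabarapl1 had larger ones, both at 0.35. Its control arrays ranged from 9.48 to 9.70 with a median of 9.63, and ketogenic replicates 1 to 5 were at 9.11, 8.88, 9.44, 9.02 and 9.29. All 5 ketogenic arrays were below the lowest control array, and ketogenic replicate 3 came closest to it. The mean was 9.61 ± 0.09 (SD, n = 6) on the control diet and 9.15 ± 0.22 (SD, n = 5) on the ketogenic diet, a log2 fold change of -0.46 (SE 0.09, 95% interval -0.65 to -0.28, limma adjusted p = 0.00553) and a 1.38-fold lower signal. Becn1 ranked 163 of 11899 probe sets by p, and 37.7% of the called probe sets had a larger absolute difference. In deposited units the control arrays ranged from 680 to 825, and the ketogenic arrays were at 570, 495, 713, 557 and 647, so that on this scale ketogenic replicate 3 lay within the control range.

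The size of the Becn1 difference depended on the scaling and on the covariates. It was -0.34 without quantile normalization and -0.31 when each array was centred on its 75th percentile instead, and Becn1 was called under both. It was -0.54 without ketogenic replicate 3 and -0.40 without ketogenic replicate 2, and it was called in each of the 11 fits that left out 1 array. With the 2 ratios of 3 prime to 5 prime probe sets as covariates it was -0.28 (SE 0.16) and not called (limma adjusted p = 0.856), in a fit that called 6 of all probe sets. With the mean spike-in level in the fit it was -0.65 (SE 0.12) and called (limma adjusted p = 0.0104).

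Atg7, the activating enzyme for both conjugation systems, had a dim probe set whose control arrays ranged from 5.47 to 6.07 with a median of 6.01. Ketogenic replicates 1 to 5 were at 5.99, 6.46, 6.10, 5.998 and 5.63, so the lowest array was a control and the highest a ketogenic one. The log2 fold change was 0.13 (SE 0.15), with a 95% interval of -0.20 to 0.46, and Atg7 was not called (limma adjusted p = 0.579). Its sign was negative without quantile normalization (-0.05) and with 75th percentile centring (-0.02), and also with the 3 prime to 5 prime ratios (-0.10, SE 0.29) and with the spike-in level (-0.05, SE 0.24) in the fit.

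Atg12, the ubiquitin-like protein that is joined to ATG5, was the called member with a higher signal. Its control arrays ranged from 7.997 to 8.30 with a median of 8.18, and ketogenic replicates 1 to 5 were at 8.44, 8.59, 8.45, 8.44 and 8.32. All 5 ketogenic arrays were above the highest control array, the nearest pair being ketogenic replicate 5 at 8.32 and control replicate 1 at 8.30. The mean was 8.16 ± 0.12 (SD, n = 6) on the control diet and 8.45 ± 0.09 (SD, n = 5) on the ketogenic diet, a log2 fold change of 0.29 (SE 0.07, 95% interval 0.13 to 0.45, limma adjusted p = 0.0201) and a 1.22-fold higher signal. Its rank by p was 801, and 83.5% of the called probe sets had a larger absolute difference. In deposited units the control arrays ranged from 256 to 311 and the ketogenic arrays from 324 to 398, again without overlap.

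For Atg12 the values as deposited and 75th percentile centring gave 0.32 and 0.35, both called. Without ketogenic replicate 2, the highest array, the difference was 0.26 and was not called (limma adjusted p = 0.0584), and it was called in the other 10 fits with 1 array left out. With both 3 prime to 5 prime ratios in the fit it was 0.18 (SE 0.13, limma adjusted p = 0.904), and with the spike-in level 0.32 (SE 0.12, limma adjusted p = 0.0879), neither of them called.

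Atg5, the partner of ATG12, had control arrays from 6.19 to 6.82 with a median of 6.71. Ketogenic replicates 1 to 5 were at 7.22, 6.57, 6.17, 6.72 and 6.55. The ketogenic arrays thus held the highest and the lowest value, replicates 1 and 3, and control replicate 2 at 6.19 stood apart from the other controls, which began at 6.63. The log2 fold change was 0.0067 (SE 0.16) with a 95% interval of -0.34 to 0.35 (limma adjusted p = 0.982), the widest interval among the members. The sign depended on the scaling, at -0.12 on the values as deposited and -0.09 with 75th percentile centring, and on the covariates, at -0.52 (SE 0.27) with both 3 prime to 5 prime ratios in the fit and 0.20 (SE 0.25) with the spike-in level. It also changed with single arrays, from -0.14 without ketogenic replicate 1 to 0.13 without ketogenic replicate 3, and Atg5 was called under none of these settings.

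The promoters of the 2 conjugation partners are shown because Atg12 was called and Atg5 was not. They are RefSeq sequences of the rat assembly GRCr8, from 250 bases before to 50 bases after the annotated start, and 8 of the 10 named genes have one in the table used. Becn1 and Map1lc3a have no entry there. Capitals mark matches, on both strands, to CACGTG, an E-box that TFEB and related factors bind, to TGACGTCA, the full cAMP response element, to TGACG, which is its shorter form and lies within it, and to GGGCGG, the GC box. The Atg12 promoter lies at chr18:41648969-41649268 on the minus strand and the Atg5 promoter at chr20:49380585-49380884 on the plus strand.
Atg12: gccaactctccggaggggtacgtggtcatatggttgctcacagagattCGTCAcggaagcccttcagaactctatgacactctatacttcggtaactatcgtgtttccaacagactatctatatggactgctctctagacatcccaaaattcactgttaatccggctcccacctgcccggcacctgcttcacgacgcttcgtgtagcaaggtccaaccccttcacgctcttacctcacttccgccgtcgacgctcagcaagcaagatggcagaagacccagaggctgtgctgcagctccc
Atg5: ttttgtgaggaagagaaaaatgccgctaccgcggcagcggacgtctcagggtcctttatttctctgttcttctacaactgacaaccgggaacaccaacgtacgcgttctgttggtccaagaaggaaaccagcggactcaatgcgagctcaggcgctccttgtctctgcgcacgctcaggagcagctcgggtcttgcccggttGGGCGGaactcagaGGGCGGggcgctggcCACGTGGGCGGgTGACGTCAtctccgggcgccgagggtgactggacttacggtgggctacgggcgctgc
The Atg12 window held 1 TGACG and 0 of the other motifs, while the Atg5 window held 1 CACGTG, 1 TGACGTCA and 3 GGGCGG. Among all 33469 promoters of this length, 6.42% held CACGTG, 1.83% TGACGTCA, 21.2% TGACG and 33.1% GGGCGG. Of the 8 promoters of the named genes 1 held CACGTG, 1 TGACGTCA, 3 TGACG and 6 GGGCGG. A match is a run of letters in this window and does not show that a factor binds there.

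The 3 measured genes for the LC3 and GABARAP proteins were not called, and their signs differed. Map1lc3a, which encodes LC3A, had control arrays from 9.13 to 9.46 with a median of 9.34, and ketogenic replicates 1 to 5 at 9.08, 9.35, 9.33, 9.15 and 9.21. The arrays of the diets overlapped, with control replicate 6 and ketogenic replicates 1 and 4 the lowest. The log2 fold change was -0.10 (SE 0.07, 95% interval -0.25 to 0.04, limma adjusted p = 0.311). It was 0.02 without quantile normalization and 0.05 with 75th percentile centring, so its sign depended on the scaling.

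Gabarap had the tightest control arrays among the members, from 9.40 to 9.52 with a median of 9.46. Ketogenic replicates 1 to 5 were at 9.26, 9.27, 9.48, 9.29 and 9.41, so that replicates 1, 2 and 4 lay below every control and replicates 3 and 5 within their range. The log2 fold change was -0.11 (SE 0.06, 95% interval -0.23 to 0.01, limma adjusted p = 0.179), and here too the sign turned with the scaling, to 0.02 and 0.05 under the same 2 scalings.

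Gabarapl1, a close relative of Gabarap, had control arrays from 9.93 to 10.41 with a median of 10.18, and ketogenic replicates 1 to 5 at 10.05, 10.45, 10.55, 10.52 and 10.25. Ketogenic replicates 2, 3 and 4 were above every control array and the other 2 were within the control range. The log2 fold change was 0.20 (SE 0.10, 95% interval -0.02 to 0.41, limma adjusted p = 0.181). Gabarapl1 was called when arrays were centred on the 75th percentile (0.35, limma adjusted p = 0.0422) and not on the values as deposited (0.31, limma adjusted p = 0.0589). With the mean spike-in level in the fit it was at -0.05.

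Sqstm1, which encodes the cargo receptor p62, was read by 4 probe sets, the only member with more than 1, and they did not share a sign. The brightest, 1371353_at, had control arrays from 9.47 to 9.997 with a median of 9.64 and ketogenic replicates 1 to 5 at 9.97, 9.85, 9.88, 9.59 and 9.84. Apart from control replicate 6, which was the highest array, and ketogenic replicate 4, the ketogenic arrays lay above the controls. The log2 fold change was 0.15 (SE 0.09, 95% interval -0.03 to 0.33, limma adjusted p = 0.233). It was 0.30 and called when centred on the 75th percentile (limma adjusted p = 0.0368), and 0.27 and not called on the values as deposited (limma adjusted p = 0.0502). With both 3 prime to 5 prime ratios in the fit its sign turned, to -0.14 (SE 0.14).

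The other Sqstm1 probe sets were dimmer. For 1389381_at the control arrays ranged from 6.96 to 7.41 and the ketogenic arrays from 7.12 to 7.42, with a log2 fold change of 0.06 (SE 0.09, limma adjusted p = 0.670), and -0.0024 with the spike-in level in the fit. For 1371221_at the ranges were 6.22 to 6.76 and 6.20 to 6.65, with a log2 fold change of -0.07 (SE 0.12, limma adjusted p = 0.735). The latter was at -0.48 (SE 0.20) with the 3 prime to 5 prime ratios and at 0.19 (SE 0.17) with the spike-in level in the fit, and called in neither. The fourth, 1371220_at, had a mean of 4.65, below the level of 5.16 needed for testing, and spread widely, from 3.97 to 5.31 in controls and from 2.83 to 5.99 on the ketogenic diet.

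**Figure D2:**
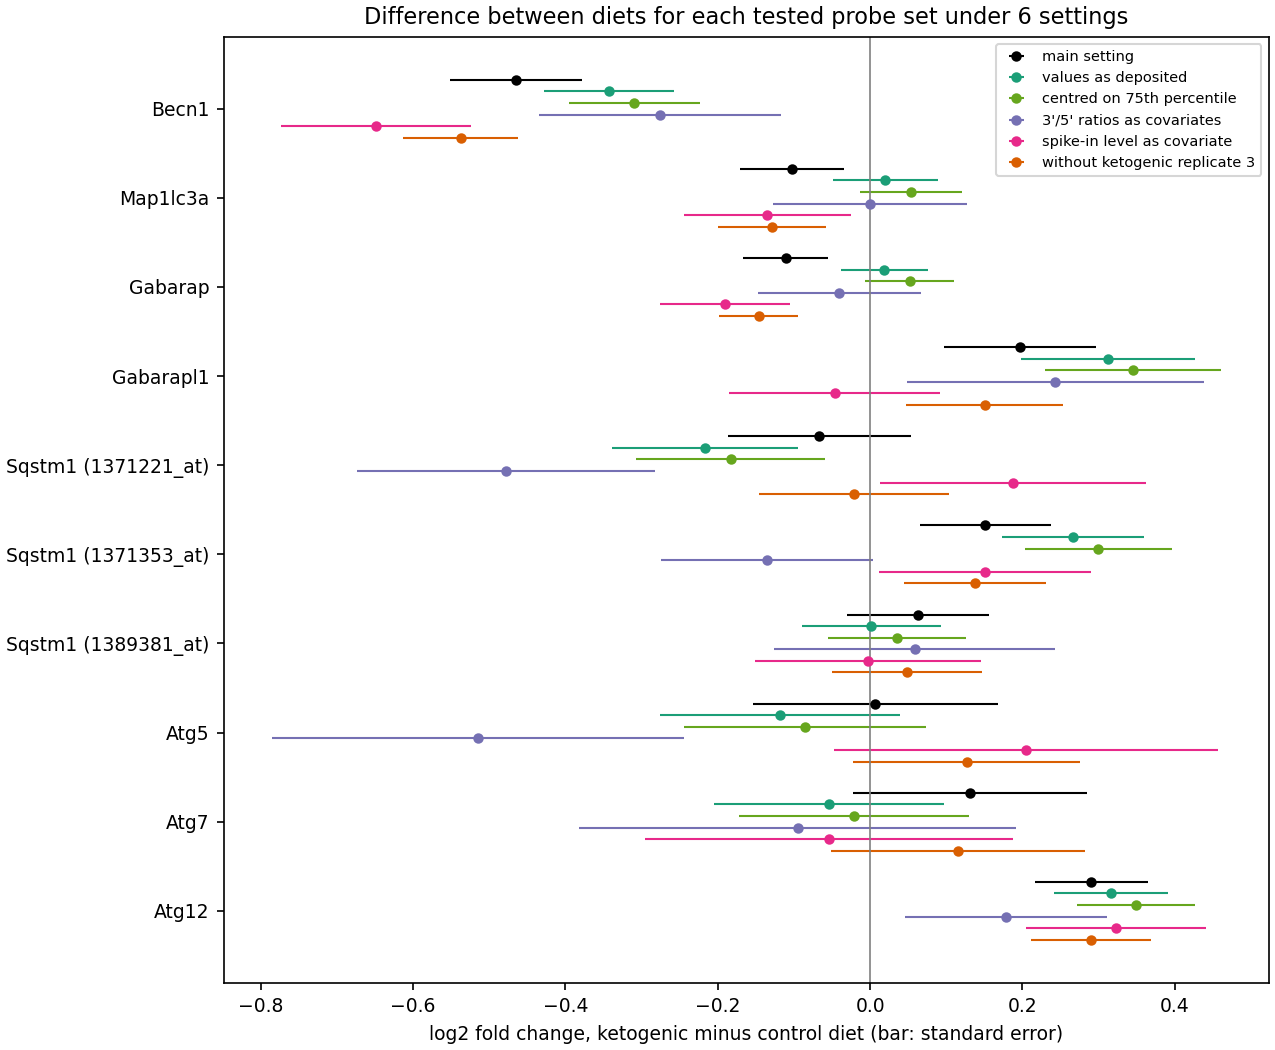
Log2 fold change, ketogenic minus control diet, of the 10 tested probe sets under 6 settings, with standard errors as bars. Becn1 stays negative and Atg12 positive under each of the 6, while Map1lc3a, Gabarap, Atg5 and Atg7 change sign with the scaling. The errors widen with the 3 prime to 5 prime covariates, for Becn1 from 0.09 to 0.16.

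**Figure D3:**
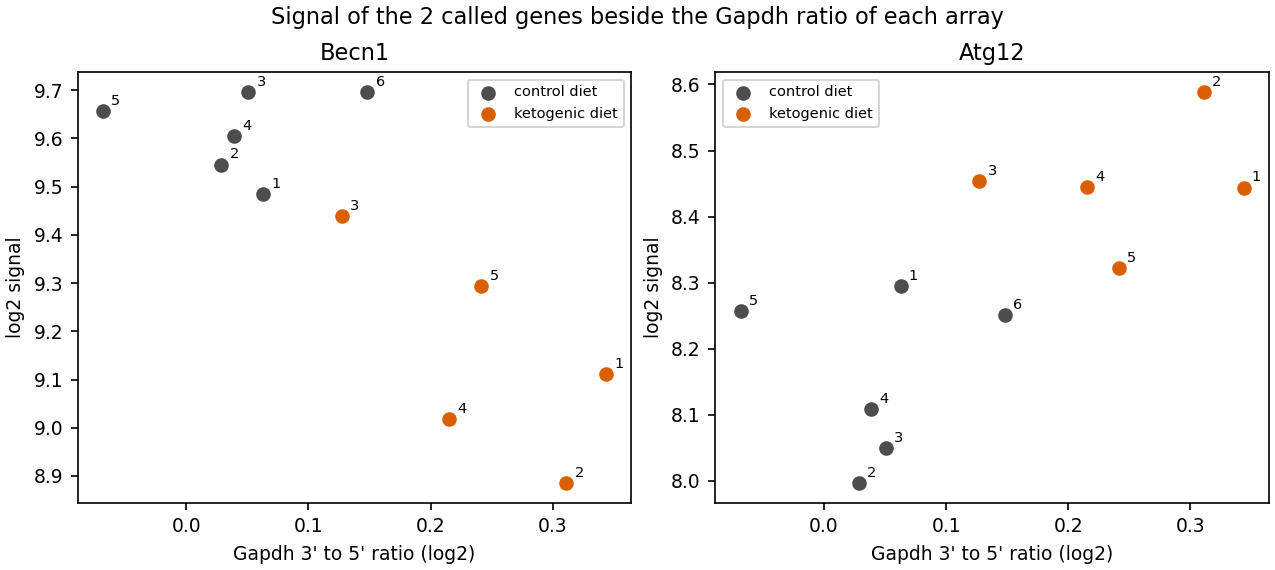
Log2 signal of Becn1 (left) and Atg12 (right) against the log2 ratio of the 3 prime to 5 prime Gapdh probe sets, 1 point per array, labelled with its replicate number, control diet in grey and ketogenic diet in orange. The ratio ran from -0.07 to 0.15 in controls and from 0.13 to 0.34 on the ketogenic diet, and control replicate 6 is the only control above the lowest ketogenic array.

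In the plot of Becn1 and Atg12 against the Gapdh ratio, the diets share only the stretch held by control replicate 6 (0.15) and ketogenic replicate 3 (0.13). There control replicate 6 had 9.70 for Becn1 and 8.25 for Atg12, and ketogenic replicate 3 had 9.44 and 8.45. These are single values with no error, and the part of RNA integrity in the difference between diets was not tested by them. By the actin ratio, which is not plotted, the diets did not overlap. Controls were at 0.487 to 0.7498 and ketogenic arrays at 0.7545 to 0.985.

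By likeness of their variation within the diets, measured as Pearson's r of diet-centred values over the 11 arrays, Tln1 (r = 0.94) and Chmp6 (r = 0.91) were closest to Becn1 among all tested genes. Tln1 encodes the adhesion protein talin, and Chmp6 encodes a subunit of a membrane-cutting complex. Their own log2 fold changes were -0.41 (SE 0.13) and -0.36 (SE 0.12), both called (limma adjusted p = 0.0484 for each). Closest to Atg12 were Col6a1 (r = 0.93), a collagen gene, and Tpd52l2 (r = 0.93), with log2 fold changes of 0.08 (SE 0.17) and 0.29 (SE 0.23), neither of them called. Each is the best of all tested genes over 11 arrays that share their normalization, so the r values are a description.

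A further 72 genes of the pathway were listed by role from general knowledge, of which 54 had a probe set of their own and 51 a tested one, each represented by its brightest. Of the 51 genes 8 rose and 3 fell, 21.6% in all, beside 16.9% of all 8397 tested genes, with 8.85% called higher and 8.03% called lower. Their median log2 fold change was 0.058. With the mean of all tested probe sets of a gene in place of the brightest, 8 were called higher and 1 lower. Bcl2l1, Vps33a, Tecpr1 and Atg4b were then not called, while Fundc1, the lower one, and Rab7a were. With the 3 prime to 5 prime ratios in the limma fit 0 of the 51 were called (5 at an unadjusted p under 0.05), and with the spike-in level 5 were. Without ketogenic replicates 2, 3 and 4 the counts were 7, 18 and 6.

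In the ULK1 complex, the kinase that starts autophagy, 1 of 4 measured genes was called. This and the counts by role below stand beside 16.9% of all tested genes called. Atg101 rose by 0.75 (SE 0.21, limma adjusted p = 0.0302), with control arrays at 4.64 to 5.92 and ketogenic replicates 1 to 5 at 6.29, 5.86, 5.88, 6.33 and 6.34. Ketogenic replicates 2 and 3 lay within the control range, and Atg101 was not called on the values as deposited (0.57, limma adjusted p = 0.0706). Its control mean of 5.39 was near the level of 5.16 needed for testing. It was also not called with no filter on dim probe sets (limma adjusted p = 0.0664) or with the replicate numbers as a block (limma adjusted p = 0.0526). The same held with 75th percentile centring (0.60, limma adjusted p = 0.0577). With both 3 prime to 5 prime ratios in the fit Atg101 was at 1.19 (SE 0.39, limma adjusted p = 0.625). With the spike-in level it was at 0.66 (SE 0.35, limma adjusted p = 0.218), and it was called in neither. The kinase gene Ulk1 had a log2 fold change of 0.14 (SE 0.10, limma adjusted p = 0.351).

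Around beclin 1, 3 of 7 genes were called, and they did not move with Becn1 in 1 direction. Ambra1, which encodes a scaffold that binds beclin 1, rose by 0.69 (SE 0.14, limma adjusted p = 0.00852), with controls at 5.90 to 6.49 and ketogenic replicates 1 to 5 at 7.13, 7.09, 6.48, 6.78 and 6.82. Of these only ketogenic replicate 3 reached into the control range. Uvrag, a subunit of one form of the lipid kinase complex, rose by 0.48 (SE 0.11, limma adjusted p = 0.0140), with controls at 6.64 to 7.23 and ketogenic replicates at 7.49, 7.57, 7.15, 7.53 and 7.25. Bcl2l1, whose product Bcl-xL binds beclin 1 and holds cell death in check, fell by 0.46 (SE 0.11, limma adjusted p = 0.0180), and its other tested probe set was at -0.18. The catalytic subunit gene Pik3c3 had a log2 fold change of 0.13 (SE 0.12, limma adjusted p = 0.446). With the 3 prime to 5 prime covariates Ambra1 was at -0.0021 (SE 0.18) and Uvrag at 0.08 (SE 0.17), and Bcl2l1 at -0.56 (SE 0.22), none of them called.

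Among genes of membrane supply 0 of 5 were called by limma (1 at an unadjusted p under 0.05). In the conjugation machinery 1 of 4 was called. Atg4b, the protease that trims LC3 and GABARAP proteins before they can be joined to lipid, rose by 0.39 (SE 0.11, limma adjusted p = 0.0302), with controls at 6.90 to 7.53 and ketogenic replicates at 7.52, 7.70, 7.49, 7.499 and 7.74. These ranges overlapped, and the other tested probe set of Atg4b was at -0.01. With both 3 prime to 5 prime ratios in the fit Atg4b was at 0.05 and not called (limma adjusted p = 0.986). Atg3, the enzyme that passes LC3 to lipid, was at 0.12 (SE 0.09, limma adjusted p = 0.358) and Atg16l1, the partner of the ATG12-ATG5 conjugate, at 0.02 (SE 0.09, limma adjusted p = 0.884).

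Of the 12 genes listed for selective autophagy 3 rose by limma and 0 fell (3 of each direction at an unadjusted p under 0.05). Optn, a receptor for ubiquitin-tagged cargo, rose by 0.69 (SE 0.11, limma adjusted p = 0.00275), with controls at 5.99 to 6.47 and ketogenic replicates 1 to 5 at 6.84, 7.09, 6.65, 7.10 and 7.01. Pink1, a kinase that marks damaged mitochondria, rose by 0.39 (SE 0.09, limma adjusted p = 0.0116), with controls at 8.13 to 8.65 and ketogenic replicates at 8.81, 9.02, 8.80, 8.79 and 8.71. Bnip3l, which encodes a receptor on the mitochondrial surface, rose by 0.36 (SE 0.07, limma adjusted p = 0.00624), with controls at 8.60 to 8.87 and ketogenic replicates at 9.14, 9.22, 8.93, 9.08 and 9.001. The diets did not overlap for 4 genes of this list, these 3 and Fundc1, and for no other of the 51 further genes. Over all tested probe sets 6.99% did not overlap. Fundc1, another receptor on the mitochondrial surface, lay wholly lower on the ketogenic diet (5.81 to 6.20 against 6.22 to 6.76). It was at -0.35 (SE 0.12) and was not called (limma adjusted p = 0.0546). The other 2 genes below an unadjusted p of 0.05 with a negative sign were Bnip3 at -0.22 (SE 0.08, limma adjusted p = 0.0711) and Fkbp8 at -0.48 (SE 0.19, limma adjusted p = 0.0932), which also encode receptors on mitochondria. Fundc1, Bnip3 and Fkbp8 were named after their values were seen. With the mean spike-in level in the fit Pink1 was at 0.40 and not called (limma adjusted p = 0.0802), while Optn and Bnip3l were called. With the 3 prime to 5 prime covariates the differences were 0.63 (SE 0.22) for Optn, 0.11 (SE 0.14) for Pink1 and 0.14 (SE 0.11) for Bnip3l, none of them called. The second tested probe sets of Optn and Bnip3l were at 0.23 and 0.17, not called.

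Among genes for fusion with lysosomes 1 of 12 rose and 2 fell, each gene read by its brightest probe set. Rab7a was not called by that probe set (0.12, SE 0.06, limma adjusted p = 0.170). Its other tested probe set was called higher, at 0.39 (limma adjusted p = 0.00387). Rab7a was named after its values were seen. Vps39, a tethering subunit, rose by 0.41 (SE 0.12, limma adjusted p = 0.0327) and was not called on the values as deposited (0.28) or with the spike-in level in the fit (0.50, limma adjusted p = 0.0986). Vps33a, another subunit of the tether, fell by 0.44 (SE 0.12, limma adjusted p = 0.0288), with ketogenic replicate 3 the lowest at 6.99, and Tecpr1 fell by 0.44 (SE 0.14, limma adjusted p = 0.0482), with ketogenic replicate 3 the highest of its group at 9.02. The other tested probe sets of Vps33a and Tecpr1 had the opposite sign, at 0.23 and 0.26. With the spike-in level in the fit Vps33a was at -0.09 and not called (limma adjusted p = 0.745). The lysosomal membrane genes Lamp1 and Lamp2 were at -0.03 (SE 0.05) and 0.15 (SE 0.08), and Lamp1 had a positive sign without quantile normalization (0.10) and with 75th percentile centring (0.13).

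Of 7 transcription factor genes 0 were called by limma (3 at an unadjusted p under 0.05, 2 higher and 1 lower). Tfeb, which encodes a factor that switches on genes of lysosomes and autophagy, was at -0.41 (SE 0.16, limma adjusted p = 0.0899). It was called lower without quantile normalization (-0.54, limma adjusted p = 0.0367) and with 75th percentile centring (-0.51, limma adjusted p = 0.0448). Over all 24 alternative settings Tfeb ran from -0.55 to -0.13 and was called in 6, among them 2 of the 11 fits that left out 1 array. Of the 11 fits that left out 1 array, Ambra1, Uvrag, Optn, Bnip3l and Pink1 were called in 11, Bcl2l1 in 10, Atg101 in 8, Vps33a in 7, Atg4b in 5, Vps39 in 3 and Tecpr1 in 2. Among the 11 called genes of all roles 6 had a second tested probe set, which had the same sign in 3 and the opposite sign in 3, and 0 of these second probe sets were called by limma (adjusted p of 0.064 to 0.94).

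**Figure D4:**
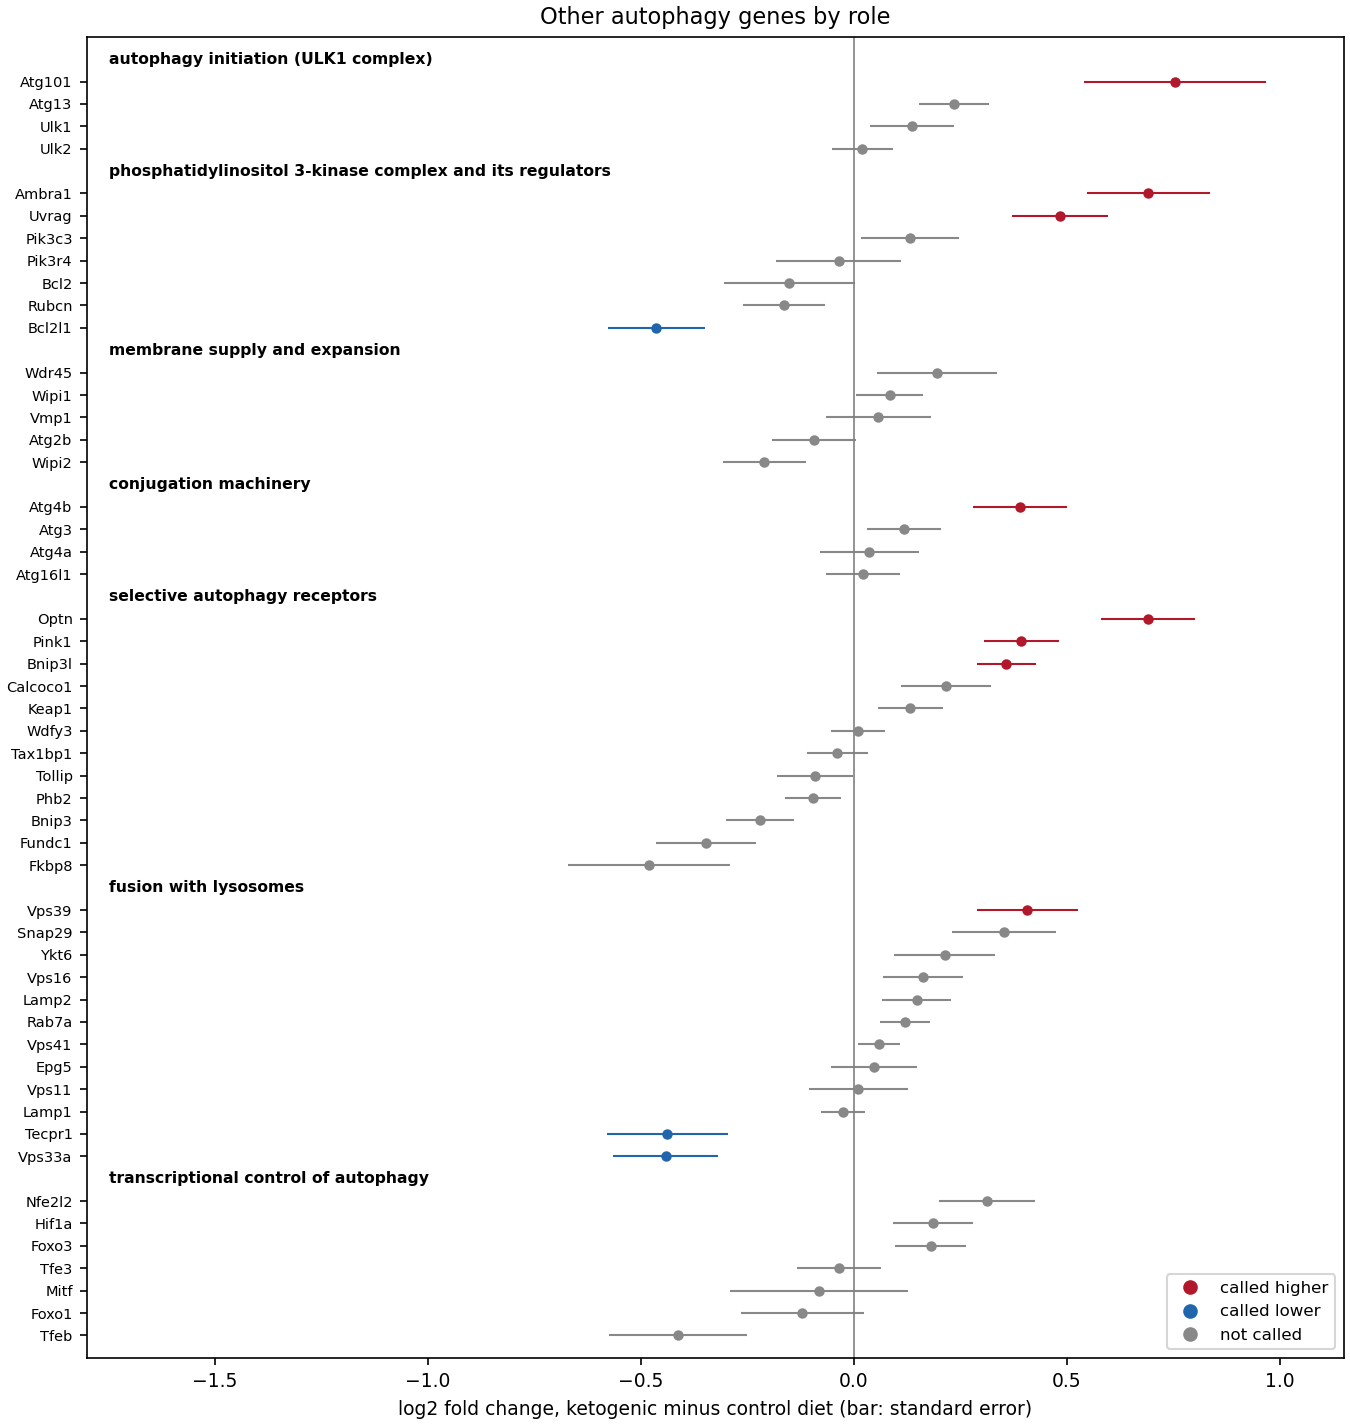
Log2 fold change, ketogenic minus control diet, of the 51 further autophagy genes by role, with standard errors as bars, called genes in red (higher) and blue (lower) and the others in grey. The 8 higher genes are spread over 5 roles and the 3 lower ones over 2, and membrane supply and transcriptional control have none.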

How the data were processed

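Total RNA of rat hippocampus was read on 11 arrays, 6 on the control and 5 on the ketogenic diet, grouped by their titles. What was deposited is a linear intensity for each probe set, and how it was computed is not given in the sources used. Their mean trimmed by 2% at each end was about 150.02 to 150.03 on each array. The members and lists were chosen with earlier results of these data known. Medians of the log2 values spanned 0.24, above a limit of 0.1, so log2 values were quantile-normalized, values below the 5th percentile (a signal of 4.99) were set to it, 57 control probe sets were removed, and the 25% with the lowest mean were not tested. The fit was made with limma 3.58.1 in R 4.3.3 (lmFit, eBayes with a variance trend, two-sided). Symbols came from the platform annotation, updated by gene identifier with a RefSeq table of GRCr8 (12754 of 12789 probe sets with 1 symbol matched, 312 had several symbols and 2771 were unnamed here).

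Named genes are all members, all called genes of each further list (none had over 4), and a fixed set, of which Atg9a and Nbr1 had no probe set of their own. For each called member the 2 genes most like it are given. Exact two-sided permutation tests were used for the array measures and allow no p below 0.00216. Precision is limited by having 11 arrays. The code of the diet fit was tried on simulated data of 11899 probe sets. There 57 of 100 changed by 0.5 and 92 of 100 changed by 1 on the log2 scale were called, and 11 of 160 calls were false. The arrays gave 1961 calls, so far more probe sets differed there than were changed in the simulation. The simulated shares were therefore not shown to hold for the arrays. They also do not cover differences that many probe sets share, such as those that go with RNA integrity. Same-numbered arrays of the 2 diets had deviations that correlated at 0.0089 to 0.077, so the numbers were not taken as pairs. Alternatives were other scalings, floors and filters, array weights, a replicate block, other variance settings, covariates, and leaving out each array. For the further genes, the mean of all tested probe sets of a gene was also used.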

Additional observations from a re-analysis of the deposited data

Results flagged for a closer look

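In 64 groups of values, each a probe set or an array measure within 1 diet, 5 had an array far from the rest, where chance gives about 1 in 20 groups, or 3.2. Among the members it was the Atg5 signal of control replicate 2, at 6.19 where the next array was at 6.63. Pik3c3 was at 6.26 on control replicate 6 against 6.74 for the next array, and Atg3 at 8.24 on the same array against 8.44. Tfeb was at 6.33 on control replicate 4 against 6.86. The mean log2 level of the spike-in probe sets was 8.91 on ketogenic replicate 3 against 8.62 for the next ketogenic array.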

How the results depend on the processing

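The number of probe sets called over the whole table, 1961, was 3137 with array weights, 6 when both 3 prime to 5 prime ratios entered as covariates, and 806 to 3166 with 1 array left out. The lowest count came without ketogenic replicate 4 and the highest without ketogenic replicate 3. The 2 calls among the members became 4 when centred on the 75th percentile and 4 with the replicate block (10 arrays, without control replicate 6), Gabarapl1 and Sqstm1 being added higher both times. They became 0 in limma with the 3 prime to 5 prime covariates (1 at an unadjusted p under 0.05, a Sqstm1 probe set), 1 (Becn1) with the spike-in level, and 1 to 2 with 1 array left out. The members' median log2 fold change was -0.068 with the 3 prime to 5 prime covariates and -0.019 to 0.082 with 1 array left out. The 11 further genes called became 6 with no filter on dim probe sets, 0 and 5 with the 2 covariate settings, and 6 to 18 with 1 array left out. They became 9 with the mean of all tested probe sets of a gene, 8 higher and 1 lower. With the replicate block, whose numbers are not known to pair arrays, 1815 probe sets and 12 of the further genes were called. The 3 prime to 5 prime ratios stayed higher on the ketogenic diet with each array left out, for Gapdh by 0.18 to 0.23 and for actin by 0.16 to 0.22. Among the further genes named, signs that turned were those of Ambra1 (-0.0021), Tecpr1 (0.048), Lamp1 (0.082), Lamp2 (-0.020) and Atg16l1 (-0.051) with the 3 prime to 5 prime covariates, of Lamp1 as deposited (0.098) and with 75th percentile centring (0.13), and of Atg16l1 on the values as deposited (-0.0083), with array weights (-0.0079), with the spike-in level (-0.068) and, with 1 array left out, at -0.0097 to 0.071. Signs that turned among the members, none of them at the called Becn1 or Atg12, stand beside each gene in the report above. The covariates leave fewer degrees of freedom and overlap with diet; otherwise the cause was not tested.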
